A study of Mus musculus with 18 samples.

Results

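The comparison described here sets RNA that a control antibody brought down from sciatic nerve axoplasm against the RNA of that axoplasm itself. Its members were taken by library title: the 3 IgG precipitates and the 3 inputs of sciatic nerve, 6 of the 18 libraries of the series. All 18830 named transcripts of the sciatic nerve table entered, which made 13555 genes, and 12710 of these passed the filter on low counts and were tested. The series asks which RNAs the motor protein Kif5A carries in axons of sensory neurons. Axoplasm came from sciatic nerves or dorsal roots of C57B6 mice, with 5 animals pooled into each of 3 independent repeats. The precipitates were made with a rabbit antibody to Kif5A or with rabbit IgG, and part of the axoplasm was sequenced without precipitation as input. The labels name no mutation, transgene or drug for any group and give no age or sex. The axoplasm was the supernatant of ground nerve tissue after a spin, so RNA of glia, vessels and sheath can be in every group beside that of axons. The labels give no RNA amount for any library.

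An isotype control is an antibody of the same species and class that recognises no chosen antigen. RNA found with it has stuck to antibody, to beads or to tube walls, or sits in particles and lipid that come down with the beads. Such RNA is the baseline against which an RNA immunoprecipitation is read, and it is commonly little and needs many cycles of PCR. Sciatic nerve holds myelinating and non-myelinating Schwann cells around axons of neurons whose cell bodies lie elsewhere. It also holds fibroblasts and macrophages of the endoneurium, a perineurial sheath, blood vessels, and an outer epineurium that contains fat.

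Named counts per library were 21774833, 21323159 and 22580824 with IgG and 16900707, 12256188 and 20249552 in input. Levels below are counts scaled to the named total of the library (CPM, parts per 1e6). Ratios are fitted log2 ratios of IgG over input with their standard error (SE), after scaling by TMM factors, which lay between 0.874 and 1.04. Markers of the tissue were present in input: Sox10, a transcription factor of Schwann cells, had 254, 261 and 542 CPM, and Col1a1, a fibrillar collagen of fibroblasts, had 1349, 1766 and 709 CPM. Isl1, a transcription factor of sensory neuron cell bodies, was at or below 0.898 CPM in every one of the 6 libraries. The defining markers Itgb4, Pou4f1 and Cd3e had no transcript under these names in the sciatic nerve counts, so they were not analysed. Fat markers were present as well: Adipoq, the hormone adiponectin, had 842, 1050 and 265 CPM in input. Input replicate 3 stood apart from the other 2 inputs. Its correlation with them over genes was 0.894 and 0.881, against 0.972 between replicates 1 and 2.

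How many genes separated the precipitate from the axoplasm depended on the test. By edgeR's quasi-likelihood test with Benjamini-Hochberg adjustment, 7 of 12710 genes (0.0551%) were higher with IgG and 1 (0.00787%) was lower at an adjusted p under 0.05. At an unadjusted p under 0.05, 896 genes (7.05%) were higher and 906 (7.13%) lower. All 3 IgG libraries lay above all 3 inputs for 1448 genes (11.4%) and below them for 1525 genes (12%). On the same 6 libraries DESeq2 called 539 genes higher (4.39% of the 12268 it gave an adjusted p) and 352 lower (2.87%). EdgeR with all 18 libraries called 174 higher (1.37%) and 300 lower (2.37%), and with all 9 of sciatic nerve 1 higher (0.00753%) and 4 lower (0.0301%). The median log2 ratio over all genes tested was 0.04, and 51.7% of the ratios were positive. The named genes that rose include genes of fat and of capillary endothelium, and the gene that fell was a globin. Every one of the 8 calls was lost in at least one of the fits that left out a library: with any 1 of the 6 left out, 0 or 1 gene was higher and 0 were lower.

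Gpihbp1 had the smallest adjusted p. It encodes the protein of capillary endothelium that carries lipoprotein lipase to the vessel lumen, where the enzyme frees fatty acids for fat and muscle. It had 369, 429 and 651 CPM with IgG and 12.9, 15.7 and 8.94 CPM in input, 483 ± 149 against 12.5 ± 3.38 (SD, n = 3). Every IgG library was thus far above every input. The log2 ratio was 5.23 (SE 0.39, adjusted p = 0.00891), a 37.6-fold difference. With the Kif5A antibody the levels were 263, 195 and 16.5 CPM, so 2 of those libraries were nearer to IgG and replicate 3 was nearer to input. The gene lies on chromosome 15, 75596628 to 75599481 (GRCm38), and no annotated gene overlaps it.

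Aqp1, the water channel of endothelium and red cells (chromosome 6, 55336432 to 55348555), had 241, 193 and 223 CPM with IgG. Input had 14.6, 15.7 and 7.75 CPM. The IgG libraries were close to each other, and the log2 ratio was 4.09 (SE 0.37, adjusted p = 0.016). Rbp7, a retinol carrier of adipose endothelium (chromosome 4, 149449687 to 149454978), had 66.4, 87.4 and 82.7 CPM with IgG and 2.78, 2.45 and 2.47 CPM in input. Both groups were tight for Rbp7, with a log2 ratio of 4.88 (SE 0.45, adjusted p = 0.016). Timp4, an inhibitor of matrix metalloproteinases made by fat and heart, had 187, 230 and 128 CPM against 17.8, 18.8 and 14.4 CPM. Its log2 ratio was 3.37 (SE 0.37, adjusted p = 0.0332). Timp4 (chromosome 6, 115241892 to 115252205) lies within Syn2 on the opposite strand, and as no source says that reads were counted by strand, the reads of such gene pairs cannot be told apart.

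Nnat, the imprinted gene of the small membrane protein neuronatin, which is made in neurons, in endocrine cells and in fat, rose with the largest ratio among the named genes past the threshold. It had 172, 220 and 492 CPM with IgG and 7.99, 9.22 and 2.96 CPM in input, a log2 ratio of 5.44 (SE 0.61, adjusted p = 0.0337). Most of these reads were assigned to 1 transcript that GENCODE classes as a retained intron, Nnat-204. That transcript had 136, 189 and 459 CPM with IgG and 4.97, 5.06 and 1.73 CPM in input. The protein-coding Nnat-202 had 12.4, 9.94 and 10.0 CPM with IgG and 1.78, 3.43 and 0.593 CPM in input. Nnat (chromosome 2, 157560078 to 157562522) lies inside Blcap, which runs on the opposite strand.

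The remaining named gene that rose was Ctcflos, an antisense noncoding RNA of the Ctcfl locus (chromosome 2, 173110818 to 173133204). It had 52.0, 143 and 79.5 CPM with IgG and 4.02, 3.59 and 2.42 CPM in input (log2 4.72, SE 0.54, adjusted p = 0.0337). Its reads with IgG were assigned mostly to the longest of the 4 transcripts counted, at 37.5, 130 and 40.0 CPM. The seventh gene is A530016L24Rik, a predicted gene that the naming rule leaves out and that was picked with its values known. Its level was 181 ± 11 CPM with IgG and 26.3 ± 3.93 CPM in input.

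Hbb-bs, an adult beta globin of red cells (chromosome 7, 103826534 to 103828096), was the gene that fell. It had 107, 73.1 and 82.2 CPM with IgG and 721, 667 and 633 CPM in input, 87.3 ± 17.3 against 673 ± 44.2 (SD, n = 3). The groups were far apart and both were tight, with a log2 ratio of -3.0 (SE 0.29, adjusted p = 0.019), 7.99-fold higher in input. The Kif5A libraries lay between them, at 311, 237 and 234 CPM. Adult globin genes have near copies, so how reads divide between them is uncertain.

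**Figure D1:**
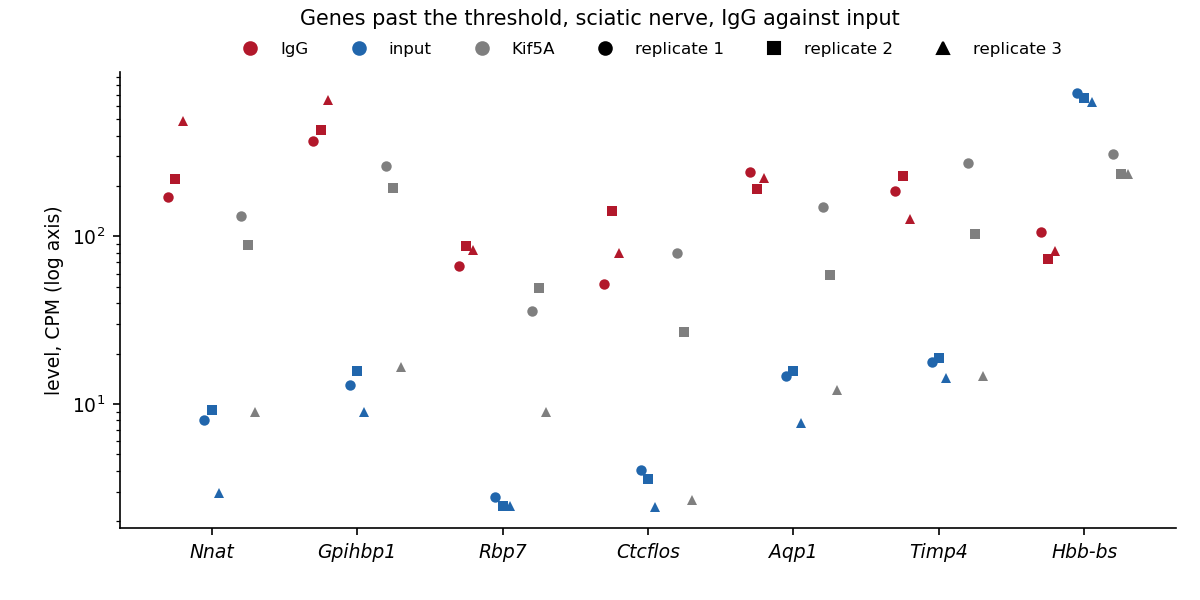
Level in CPM (log axis) of the 7 named genes past the threshold in each sciatic nerve library, with IgG in red, input in blue, Kif5A in grey and 1 marker shape per replicate number. For the first 6 genes every IgG point is above every input point, for Hbb-bs every IgG point is below, and Kif5A replicate 3 lies nearer to the inputs than to the IgG libraries for all 6 genes that rose.

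The 6 named genes next in line did not pass the test. Apol6, an apolipoprotein L family member, had 185, 202 and 331 CPM with IgG and 36.4, 30.0 and 20.6 CPM in input (adjusted p = 0.052). Aplnr, the apelin receptor of endothelium, had 82.4, 54.8 and 86.9 CPM against 1.89, 0.979 and 3.26 CPM (adjusted p = 0.0674). Tcf15, a transcription factor of capillary endothelium that handles fatty acids, had 21.6, 62.8 and 70.1 CPM against 2.43, 1.31 and 1.48 CPM. Dgat1, which makes triglyceride, had 109, 123 and 63.8 CPM against 7.63, 6.20 and 10.1 CPM, and both it and Cebpa, a master regulator of fat cell differentiation, had an adjusted p of 0.0728. Cebpa had 187, 167 and 132 CPM with IgG and 31.8, 33.1 and 20.9 CPM in input. Cidec, a coat protein of fat droplets, had 71.7, 63.9 and 30.4 CPM against 2.84, 3.83 and 1.83 CPM (adjusted p = 0.0757). In each of these 6 genes the groups did not overlap.

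Beside Hbb-bs, the named genes with the smallest p in the lower direction did not pass either. Hba-a1, an alpha globin, had 115, 114 and 116 CPM with IgG and 507, 513 and 743 CPM in input (adjusted p = 0.0674). Hbb-bt had 41.1, 46.1 and 59.1 CPM against 241, 248 and 144 CPM, and Mylpf, the fast muscle myosin light chain, had 58.3, 52.2 and 67.9 CPM against 182, 221 and 205 CPM. The adjusted p was 0.0803 for these 2 and for the next 4 genes. Dynll1, a light chain shared by dynein and myosin V, had 183, 268 and 197 CPM with IgG and 694, 607 and 625 CPM in input. Vdac2, a channel of the outer mitochondrial membrane, had 118, 147 and 144 CPM against 375, 370 and 357 CPM. Igfbp6, a secreted binding protein of insulin-like growth factors, had 746, 707 and 834 CPM against 1784, 2180 and 1648 CPM. Myeov2, a small subunit of the COP9 signalosome, had 179, 213 and 273 CPM against 652, 508 and 640 CPM. None of these groups overlapped. The same p was reached by Efhb, at 0.0918, 0.188 and 0.753 CPM with IgG against 23.2, 61.5 and 4.99 CPM in input, and by Bhlhe22, a transcription factor of neurons, at 3.86, 0.844 and 2.08 CPM against 28.0, 27.1 and 27.8 CPM.

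Genes of fat cells had the highest median ratio of the 35 lists. The log2 ratio was positive for all 20 adipocyte genes tested. Their median was 2.61 beside 0.04 over all genes. An unadjusted p under 0.05 was reached by 18, beside 7.05% of all genes that were higher, but 0 passed after adjustment. In 17 of the 20 all IgG libraries were above all inputs, beside 11.4% of all genes. DESeq2 called 15 of the 20 as higher, beside 4.39% of all genes. EdgeR called 6 of the 15 tested as higher with all 18 libraries, beside 1.37% of all genes. With all 9 of sciatic nerve it called 0 of 20, beside 0.00753% of all genes that were higher. The summed level of the list was 112818, 75358 and 33295 CPM with IgG, 16684, 19118 and 5761 CPM in input and 83514, 53493 and 9025 CPM with Kif5A. Replicate 3 was the lowest of each of these 3 groups. The IgG libraries were above the inputs at every replicate number, and the Kif5A libraries lay between IgG and input at each number.

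Adipoq itself had 6993, 3427 and 1775 CPM with IgG (log2 2.50, SE 0.62, adjusted p = 0.108), so the lowest IgG library was above the highest input. Adrb3, the adrenergic receptor through which fat cells are told to release fatty acids, had 90.4, 72.4 and 146 CPM with IgG and 17.6, 13.8 and 7.85 CPM in input. Plin4, a protein of fat droplets, had 650, 670 and 1057 CPM against 142, 146 and 46.2 CPM. For these 2 genes replicate 3 was the highest of the IgG libraries, unlike Adipoq. Pparg, the nuclear receptor that drives fat cell formation, had 21.9, 18.6 and 8.33 CPM with IgG and 1.24, 0.245 and 1.28 CPM in input (adjusted p = 0.103). With any 1 of the 6 libraries left out the median of the adipocyte list lay between 1.96 and 2.94. The part of the fat content of each nerve sample in the result was not tested. In bulk samples, fewer cells of a type and less RNA per cell cannot be told apart.

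Enzymes that make fatty acids and triglyceride were mostly positive as well. Of 15 tested, 13 had a positive ratio, with a median of 1.78. There were 8 above and 1 below at an unadjusted p under 0.05, beside 7.05% and 7.13% of all genes. Fasn, the fatty acid synthase, had 1551, 1372 and 1312 CPM with IgG and 348, 450 and 375 CPM in input (log2 1.8, SE 0.26, adjusted p = 0.0757). The IgG libraries of Fasn were within a narrow band, unlike those of Adipoq. Thrsp, a lipid-related nuclear protein, had 3755, 1912 and 1040 CPM against 359, 473 and 217 CPM. Scd1, the stearoyl-CoA desaturase, had 15942, 15102 and 10256 CPM against 6110, 8688 and 3035 CPM. Of the cholesterol synthesis genes, 2 of 20 were positive, with a median of -0.38. Sc5d, a desaturase of that pathway, had 177, 162 and 84.9 CPM with IgG and 303, 303 and 188 CPM in input.

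Endothelial genes had positive ratios in 14 of 14 cases, with a median of 1.11. Among them 4 were higher at an unadjusted p under 0.05, beside 7.05% of all genes. Plvap, which forms the diaphragms of capillary pores, had 350, 176 and 82.9 CPM with IgG and 19.6, 24.1 and 12.4 CPM in input. Egfl7, a secreted protein of vessels, had 99.8, 78.3 and 81.0 CPM against 11.8, 7.18 and 19.9 CPM, and Esam, an endothelial adhesion protein, had 151, 222 and 100 CPM against 46.3, 44.4 and 21.4 CPM. The adjusted p was 0.0803 for each of the 3, whose groups did not overlap. The defining marker Cdh5 did not separate the groups, with 116, 167 and 236 CPM with IgG and 181, 202 and 76.2 CPM in input. Pecam1 was low in all 6 libraries, between 0.148 and 7.44 CPM. Without IgG replicate 3, 10 of 14 ratios were positive, and without input replicate 3, 11 of 14.

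**Figure D2:**
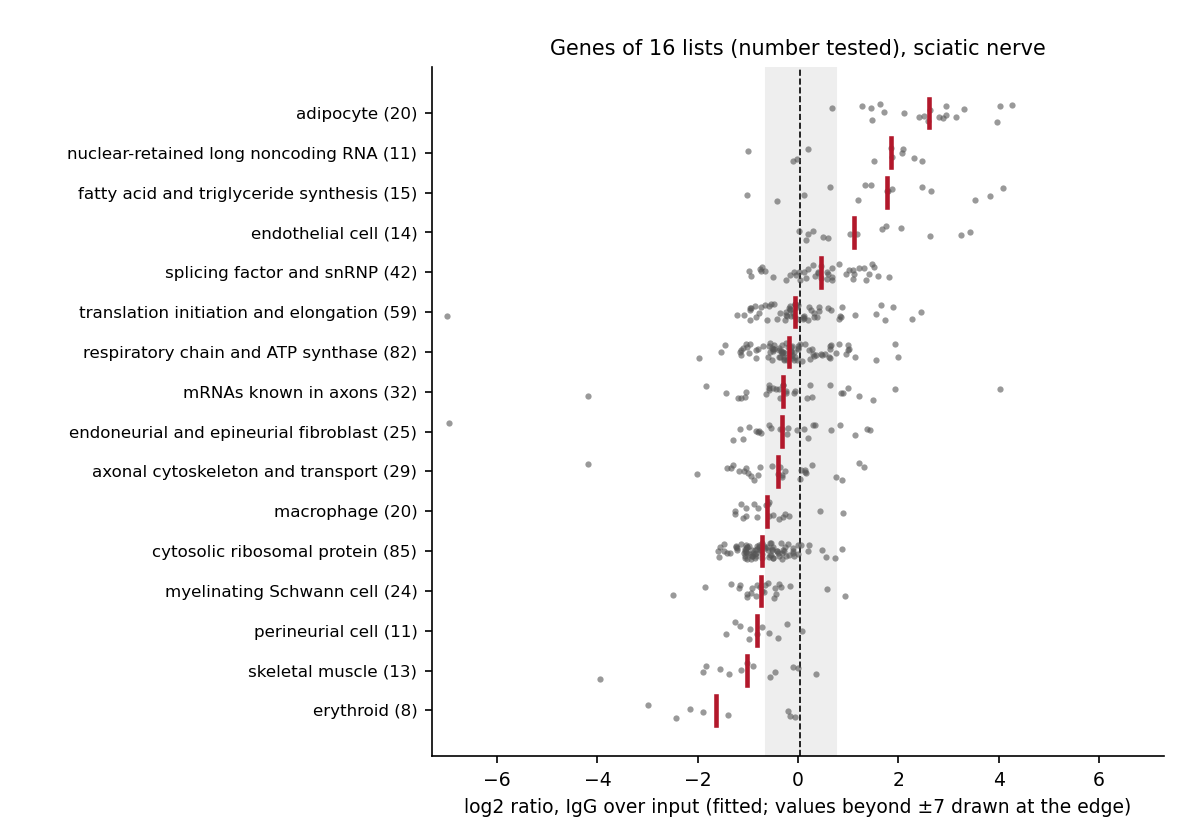
Fitted log2 ratio of IgG over input for each tested gene (grey points) of chosen lists, with the number tested in brackets and the median of the list as a red bar. The dashed line and grey band are the median and the quartiles of all genes tested; adipocyte genes have the highest median (2.61) and erythroid genes the lowest (-1.64).

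All 8 erythroid genes tested had a negative ratio, with a median of -1.64. Among them 4 were lower at an unadjusted p under 0.05, beside 7.13% of all genes. With 1 library left out the median lay between -2.29 and -1.27. In those fits 3 of 9 genes were positive without IgG replicate 2, 2 of 8 without input replicate 2, and at most 1 without any other library. Their summed level was 614, 431 and 590 CPM with IgG, 1910, 1917 and 1815 CPM in input and 1022, 919 and 798 CPM with Kif5A, and the 3 groups did not overlap. Of 13 skeletal muscle genes 12 were negative, with a median of -1.02. An unadjusted p under 0.05 was reached by 5 lower genes of this list, beside 7.13% of all genes. Ckm, the muscle creatine kinase, had 45.1, 79.6 and 74.3 CPM with IgG and 155, 190 and 207 CPM in input (adjusted p = 0.0823). Acta1, the skeletal actin, had 236, 238 and 161 CPM against 397, 469 and 289 CPM. The summed level of the muscle list was 433, 523 and 392 CPM with IgG and 957, 1104 and 836 CPM in input, again with no overlap.

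Genes of myelinating Schwann cells were mostly negative, with overlap between libraries. Of 24 genes of myelinating Schwann cells 22 had a negative ratio, with a median of -0.74. Only 2 were lower at an unadjusted p under 0.05, beside 7.13% of all genes. The summed level was 7881, 12037 and 30757 CPM with IgG and 24109, 27174 and 33437 CPM in input, so IgG replicate 3 stood at the level of input. The Kif5A libraries had 8810, 14655 and 34209 CPM. Pmp2, a lipid-binding protein of myelin, followed this order, with 509, 866 and 1517 CPM with IgG and 655, 799 and 2188 CPM with Kif5A. Without IgG replicate 3 the median of the list was -1.09, and without input replicate 3 it was -0.26. Pmp22, another myelin protein, had 98.5, 195 and 219 CPM with IgG and 142, 193 and 502 CPM in input, and its log2 ratio of -0.84 turned to 0.06 without input replicate 3. Cldn19, the claudin of Schwann cell junctions, had 128, 145 and 279 CPM against 341, 359 and 471 CPM, without overlap (adjusted p = 0.224).

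**Figure D3:**
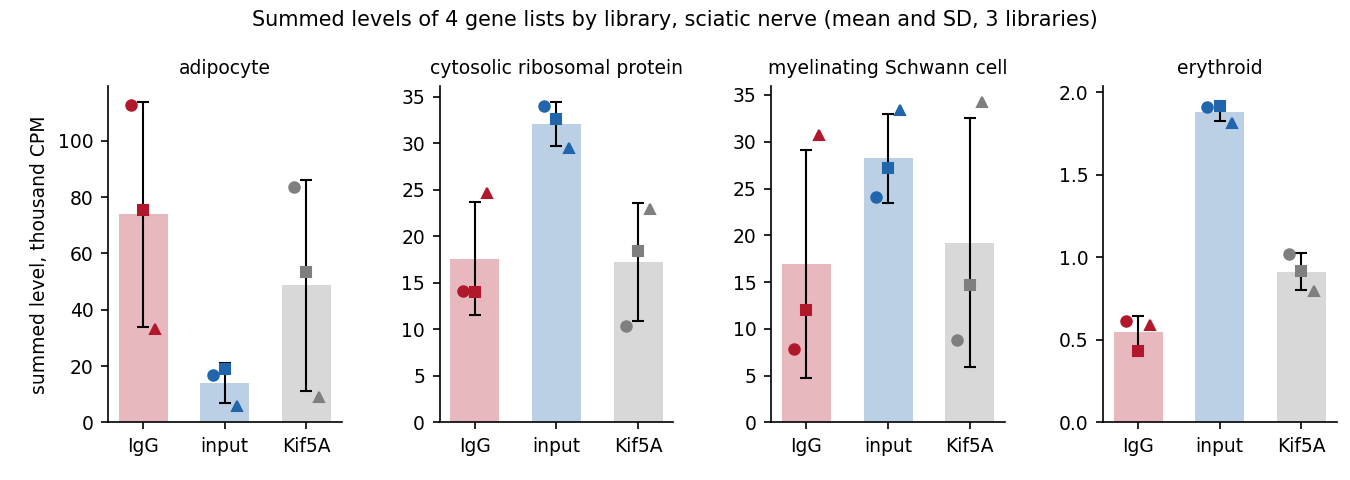
Summed level (axis in CPM divided by 1000) of adipocyte, cytosolic ribosomal protein, myelinating Schwann cell and erythroid genes in each sciatic nerve library, with bars for the mean and error bars for the SD of 3 libraries (circle, square and triangle for replicates 1, 2 and 3). The adipocyte sum is lowest in replicate 3 of each group, and the Schwann cell sum is highest there.

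Among the other cells of the nerve, macrophage genes were negative in 18 of 20 cases, with a median of -0.61. Tyrobp, a signalling adaptor of myeloid cells, had 177, 135 and 162 CPM with IgG and 393, 359 and 259 CPM in input. Fcer1g, its partner in receptor signalling, had 202, 191 and 165 CPM against 502, 370 and 293 CPM. These 2 mRNAs did not overlap between the groups, whereas C1qa, a complement protein of macrophages, had 163, 145 and 218 CPM with IgG and 170, 166 and 227 CPM in input. Perineurial genes were negative in 10 of 11 cases, with a median of -0.81. Among them 4 were lower at an unadjusted p under 0.05, beside 7.13% of all genes. Lypd2 had 71.5, 68.5 and 53.0 CPM with IgG and 210, 190 and 110 CPM in input (adjusted p = 0.085), and Sfrp5, a secreted inhibitor of Wnt signals, had 429, 350 and 478 CPM against 836, 912 and 622 CPM. The defining markers overlapped between the groups. Slc2a1 had 95.3, 295 and 163 CPM against 476, 627 and 199 CPM, and Cldn1 had 384, 471 and 197 CPM against 806, 809 and 223 CPM. The summed level of the list overlapped too, at 1573, 1919 and 1522 CPM with IgG and 3488, 3814 and 1610 CPM in input.

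Fibroblast genes were mixed, with 9 of 25 positive and a median of -0.33. There were 2 above and 6 below at an unadjusted p under 0.05, beside 7.05% and 7.13% of all genes. Col1a1 had 1302, 1343 and 1212 CPM with IgG, within the range of the inputs, and a log2 ratio of -0.01. Mfap5, a protein of elastic microfibrils, had 262, 429 and 397 CPM against 620, 681 and 734 CPM. Among pericyte and smooth muscle genes, with 6 of 12 positive, Rgs5 had 259, 308 and 226 CPM with IgG and 141, 167 and 71.0 CPM in input. Myl9, the smooth muscle myosin light chain, had 196, 211 and 327 CPM against 434, 495 and 594 CPM. These 2 markers of vessel walls thus stood on opposite sides of input.

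Axonal genes are those the Kif5A precipitate was made to find, and the control shows their background. Of 29 genes of the axonal cytoskeleton and of transport 10 were positive, with a median of -0.39. At an unadjusted p under 0.05, 1 was above and 4 below, beside 7.05% and 7.13% of all genes. Without IgG replicate 3 the median was -0.98. Kif5a, the mRNA of the motor targeted in the other precipitate, had 4.50, 6.28 and 6.24 CPM with IgG, 7.87, 9.79 and 18.2 CPM in input and 14.9, 22.1 and 53.9 CPM with the Kif5A antibody. All IgG libraries were below all inputs for Kif5a, without passing the test (log2 -1.18, SE 0.74, adjusted p = 0.538). Stmn3, a stathmin that acts on microtubules, had 25.3, 38.5 and 49.7 CPM against 98.5, 65.9 and 256 CPM. Dync1h1, the heavy chain of dynein with a very long mRNA, was on the other side, with 313, 444 and 336 CPM with IgG and 182, 193 and 194 CPM in input. Sptbn1 of the same list, with a length of 8500 nucleotides, was below every input. It had 163, 280 and 426 CPM with IgG and 522, 545 and 618 CPM in input.

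Of 32 mRNAs known in axons 11 were positive, with a median of -0.30. At an unadjusted p under 0.05, 3 were above and 6 below, beside 7.05% and 7.13% of all genes. Pparg, given above with the genes of fat cells, was 1 of the 3. Ncl, the mRNA of nucleolin, an RNA-binding protein, had 559, 523 and 457 CPM with IgG and 321, 304 and 198 CPM in input (log2 0.87, SE 0.27, adjusted p = 0.187). All IgG libraries were above all inputs for Ncl. Mtor, the kinase that couples growth to nutrients, had 82.3, 144 and 40.2 CPM with IgG and 42.7, 44.9 and 24.1 CPM in input, with overlap. Kpnb1, which encodes importin beta, had 170, 244 and 227 CPM against 274, 267 and 216 CPM, also with overlap. Actb, beta actin, was lower in every IgG library, at 1179, 1881 and 3576 CPM against 4697, 5787 and 4199 CPM (adjusted p = 0.235). Tpt1, an abundant growth-regulated mRNA, had 61.7, 67.1 and 48.4 CPM against 185, 149 and 132 CPM (adjusted p = 0.0803). Sensory neuron genes had 3 of 7 positive and a median of -0.12, which was -2.32 without IgG replicate 3 and 0.20 without input replicate 3. Ntrk2 of that list, the receptor of brain-derived neurotrophic factor, had 380, 325 and 294 CPM with IgG and 165, 171 and 84.2 CPM in input. Runx3, a transcription factor of proprioceptive neurons, had 0.459, 0.281 and 0.133 CPM against 5.68, 3.59 and 0.790 CPM, on the other side of input.

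Cytosolic ribosomal proteins have short, abundant mRNAs. Of 85 genes of cytosolic ribosomal proteins 8 were positive, with a median of -0.72. Abundant genes as a whole were below 0 too. The median was -0.16 over all tested genes with a mean of 100 to 1000 CPM and -0.58 above 1000 CPM. There were 31 lower and 0 higher at an unadjusted p under 0.05, beside 7.13% and 7.05% of all genes. After adjustment 0 of the 85 were called. The same held with all 9 or all 18 libraries, beside 0.0301% and 2.37% of all genes that were lower. DESeq2 called 11 as lower, beside 2.87% of all genes. In 39 of the 85 all IgG libraries were below all inputs, beside 12% of all genes. The summed level was 14106, 14058 and 24646 CPM with IgG, 34060, 32634 and 29498 CPM in input and 10356, 18429 and 22904 CPM with Kif5A. Both precipitates were thus below every input. Rpsa had 592, 544 and 992 CPM with IgG and 1994, 1706 and 1941 CPM in input. Rps28 had 29.0, 33.8 and 44.1 CPM against 119, 120 and 76.0 CPM. The adjusted p was 0.0807 for each of these 2 genes. Ribosomal protein genes have many processed copies in the genome, so single values are uncertain. With any 1 of the 6 libraries left out the median of the list lay between -0.89 and -0.63.

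Initiation and elongation factors had 26 of 59 positive ratios and a median of -0.06. Eif5b, the factor that joins the ribosomal subunits, has a long mRNA and had 693, 688 and 720 CPM with IgG and 266, 246 and 178 CPM in input (log2 1.56, SE 0.25, adjusted p = 0.0803). Eef1a1, the elongation factor that brings tRNA to the ribosome, had 1052, 1175 and 1360 CPM against 2534, 2206 and 1611 CPM. Respiratory chain genes had 28 of 82 positive and a median of -0.18, which was 0.20 without input replicate 3. Within that list Cox8b, a subunit of cytochrome oxidase found in muscle and brown fat, had 127, 125 and 113 CPM with IgG and 38.5, 32.7 and 21.8 CPM in input. Atpif1, the inhibitor of ATP synthase, had 196, 235 and 300 CPM against 568, 445 and 529 CPM.

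Nuclear noncoding RNAs and splicing factors were mostly positive. Of 11 nuclear-retained long noncoding RNAs 8 were positive, with a median of 1.86. There were 3 above and 0 below at an unadjusted p under 0.05, beside 7.05% and 7.13% of all genes. Neat1, the scaffold of paraspeckles, had 129, 155 and 81.6 CPM with IgG and 30.2, 33.9 and 9.28 CPM in input (adjusted p = 0.0823). Meg3, an imprinted noncoding RNA, had 102, 140 and 76.2 CPM against 33.4, 40.5 and 13.1 CPM, and Snhg11 had 574, 594 and 265 CPM against 97.4, 143 and 17.5 CPM. Malat1, among the RNAs with most counts in both groups, had 21681, 45262 and 22345 CPM with IgG and 12166, 17342 and 1955 CPM in input (log2 1.51, SE 0.67, adjusted p = 0.366). Input replicate 3 was the lowest library for each of these 4 RNAs, and without it the median of the list was 1.58. Without IgG replicate 2 it was 1.10, with 7 of 11 positive. Host genes of small nucleolar RNA had 6 of 11 positive, with a median of 1.87, which was 0.74 without IgG replicate 3 and 1.15 without IgG replicate 2. Their summed level was 360, 358 and 522 CPM with IgG and 527, 555 and 549 CPM in input, lower with IgG although the median ratio was positive. Snhg20 had 54.3, 32.1 and 38.2 CPM with IgG against 3.85, 3.75 and 3.80 CPM, whereas Snhg18 had 209, 185 and 344 CPM against 412, 446 and 463 CPM, and neither passed the test.

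Splicing factors had 31 of 42 positive ratios and a median of 0.46. Among them 7 were above and 1 below at an unadjusted p under 0.05, beside 7.05% and 7.13% of all genes. Srrm2, a large protein of nuclear speckles, had 547, 947 and 978 CPM with IgG and 267, 266 and 252 CPM in input (adjusted p = 0.0803). Ddx17, an RNA helicase, had 712, 806 and 597 CPM against 377, 396 and 195 CPM, and Prpf4b, a splicing kinase, had 200, 391 and 209 CPM against 125, 123 and 64.1 CPM. Their groups did not overlap. Proteins of RNA granules and RNA transport had 16 of 33 positive and a median of -0.06. Stau2, the double-stranded RNA-binding protein of neuronal RNA granules, had no count in any IgG library against 122, 44 and 60 counts in input.

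The other lists were near the background of all genes or rested on few genes. Of the other cell types, non-myelinating Schwann cells had 4 of 13 positive with a median of -0.36, and mast cells 1 of 7 with a median of -1.18. Cma1, a mast cell protease, had 7.81, 4.92 and 47.5 CPM with IgG and 94.3, 75.3 and 64.3 CPM in input, and mast cell proteases have near copies. Neutrophil genes had 4 of 8 positive and lymphocyte genes 2 of 5. Elane, the neutrophil elastase, had 19.7, 13.8 and 5.00 CPM with IgG against at most 0.148 CPM in input, while Cxcr2, a chemokine receptor of neutrophils, was at most 0.0469 CPM with IgG and had 3.37, 5.55 and 0.543 CPM in input. These 2 neutrophil genes stood on opposite sides of input, without passing the test. Elane (chromosome 10, 79886247 to 79888215) lies near Cfd (79890853 to 79892655) on the same strand. Cfd, a gene of fat given below, had 48219, 32369 and 11892 CPM with IgG, the same order of libraries as Elane. Where the reads assigned to Elane come from was not tested.

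Among cellular machinery, mitochondrial ribosomal proteins had 36 of 75 positive with a median of -0.01, and proteasome subunits 22 of 37 with a median of 0.15. Mrps9 of the small mitochondrial subunit had 79.8, 99.5 and 59.5 CPM with IgG and 32.5, 31.7 and 16.5 CPM in input, whereas Psmd9, a proteasome assembly factor, had 37.1, 18.3 and 14.9 CPM against 66.7, 73.3 and 154 CPM. Collagens and laminins had 15 of 39 positive, chaperones of the endoplasmic reticulum 10 of 19, cytosolic chaperones 12 of 26 and replication-dependent histones 7 of 17. Chromatin regulators with long mRNAs had 17 of 26 positive with a median of 0.32, nucleoporins and transport factors 24 of 40 with a median of 0.33, and zinc finger genes 144 of 272 with a median of 0.11. Immediate early genes had 10 of 20 positive: Btg2, which slows the cell cycle, had 145, 167 and 120 CPM with IgG and 66.5, 62.0 and 49.7 CPM in input, but Fos, a part of the AP-1 factor, had 7.39, 7.93 and 8.41 CPM against 42.4, 29.0 and 16.5 CPM.

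Fth1, the ferritin heavy chain that stores iron, had the most counts in input, with 71667, 62850 and 141774 CPM, and 34198, 35267 and 76183 CPM with IgG. Reads assigned to Lars2, the gene of the mitochondrial leucyl-tRNA synthetase, made 1036, 2237 and 10748 CPM with IgG and 7508, 11049 and 8495 CPM in input. Yam1 had 1419, 3154 and 10202 CPM against 7547, 9377 and 7728 CPM. For both genes IgG replicates 1 and 2 were below every input and replicate 3 was not. Lars2 and Yam1 had levels of similar size in each library. Which RNA the reads of either gene come from was not tested. With IgG, Fth1 was followed by Cfd, the fat hormone adipsin, at 48219, 32369 and 11892 CPM against 5871, 7118 and 2324 CPM in input (adjusted p = 0.0829). Car3, a carbonic anhydrase of fat and muscle, had 28527, 16031 and 5075 CPM against 4745, 5241 and 1490 CPM. Per kilobase of transcript, the mean level of Fth1 was 52260 CPM with IgG and 99136 CPM in input, and that of Cfd was 33435 and 5536 CPM.

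Many genes were missing from single IgG libraries. Of the 13555 genes 10.5%, 9.88% and 8.19% went without a count in the IgG libraries, against 0.974%, 1.62% and 1.56% in input. The IgG libraries were deeper; thinned to the smallest library, at 12256188 counts, the shares were 11.9%, 11.4% and 9.52% with IgG and 1.20%, 1.62% and 2.09% in input. Kif5A libraries had 1.81%, 1.45% and 2.91%. Of 8755 genes with at least 10 CPM in 1 IgG library, 386 (4.41%) had a count of 0 in another; in input the number was 2 of 7587 and with Kif5A 16 of 8244. Csf2rb2, a cytokine receptor chain, had 0, 119 and 28.5 CPM with IgG and 11.4, 12.8 and 6.57 CPM in input. Klf14, a regulator of fat genes, had 53.5, 0 and 0.0443 CPM with IgG and 3.91, 1.71 and 0.346 CPM in input. Cep85l, a centrosomal protein, had 0, 67.9 and 16.2 CPM against 9.82, 11.2 and 3.41 CPM. The library that lacked the gene differed from gene to gene. These 3 were chosen after their values were seen.

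**Figure D4:**
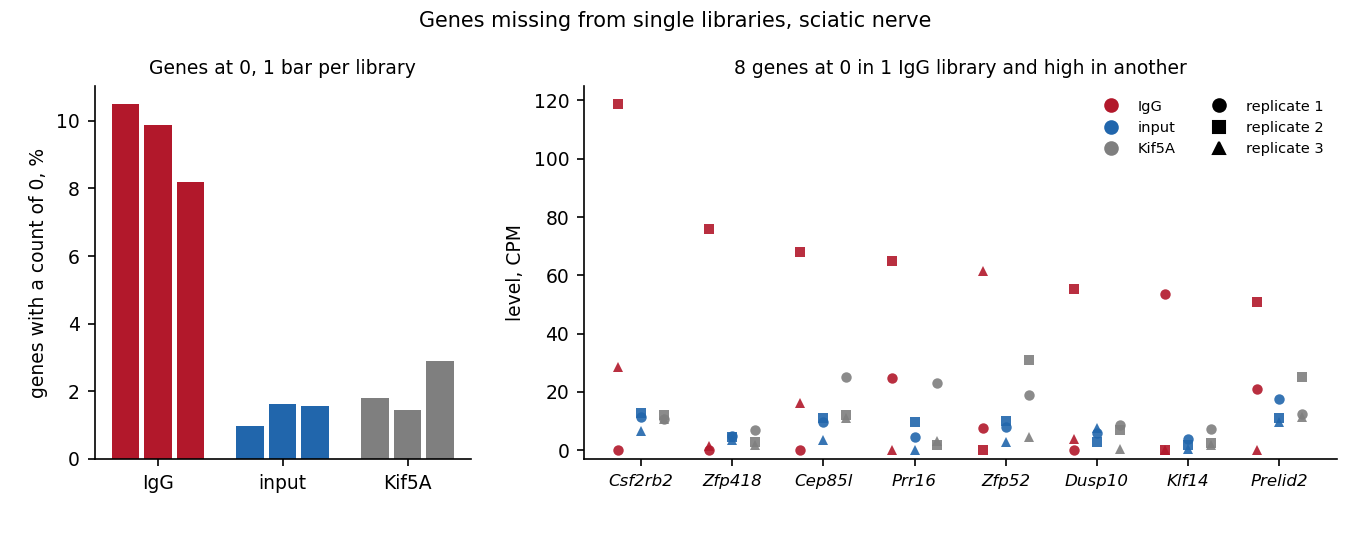
Left, percent of genes with a count of 0 in each sciatic nerve library, 1 bar per library in the order of replicates 1 to 3. Right, level in CPM of 8 genes with a 0 in an IgG library and the highest levels in another, chosen after their values were seen; no input or Kif5A library of these genes is at 0, though input replicate 3 is close to it for Prr16.

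Genes well measured in axoplasm were detected in most precipitates. Of 5883 genes with at least 10 CPM in every input, 17 were at 0 in 1 IgG library and 0 were at 0 in more than 1. Of the 5883 genes, 138 were under 1 CPM in at least 1 IgG library. The genes with no IgG count at all were low in input. Dbil5, a relative of an acyl-CoA binding protein, had 133, 38 and 275 counts in input, at least 198-fold higher than the level that 3 counts over the 3 IgG libraries allow. Stau2 was at least 100-fold higher in input by that measure, Map3k13, a stress kinase of axons, at least 91.3-fold, and Kcnh8, a potassium channel, at least 85.1-fold. Zfp874a, a zinc finger gene, was at least 84.2-fold higher. Their adjusted p-values were between 0.0803 and 0.0882. Myrfl, a membrane-bound transcription factor relative, had 1 IgG count against 564 in input, a ratio of 750 with an exact 95% interval from 134 to 29666. Reads made by PCR are not independent molecules, so these bounds and intervals hold counting error alone.

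Genes without an input count and with the highest IgG levels were Ccdc64, with 59, 0 and 100 IgG counts, and Zfp653, with 39, 0 and 72. Wdr35, a protein of cilia transport, had 21, 30 and 9 IgG counts, at least 15-fold higher than 3 counts over the 3 inputs allow. Ppan and Ampd2 had 13 and 12 IgG counts in all, and were at least 3.26-fold and 3.01-fold higher. None of these 5 genes passed the filter on low counts.

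The spread between libraries was wider with IgG. The biological coefficient of variation was 70.6% among the IgG libraries, 40.5% among the inputs and 40.4% among the Kif5A libraries, over genes with at least 10 CPM. The median SD of log2 levels was 0.64 with IgG and 0.43 in input. Over genes, the correlation of log2 levels between IgG libraries was 0.752, 0.754 and 0.744, and between an IgG library and an input it lay between 0.737 and 0.813. Between an IgG library and a Kif5A library it lay between 0.758 and 0.819. Most values between an IgG library and an input, and all of those with Kif5A, were above the values between IgG libraries. These correlations share genes and depth and are given as a description.

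Of 1785 tested genes with a transcript length under 1 kb, 39.4% had a positive ratio, with a median of -0.31. Among them 94 were above and 206 below at an unadjusted p under 0.05, beside 7.05% and 7.13% of all genes. The medians of longer genes lay between 0.07 and 0.11 in the 4 classes from 1 kb upward. Among genes with a mean of at least 10 CPM, a cut added after seeing the data, the median under 1 kb was -0.34 over 635 genes and between 0.05 and 0.13 above. Without the ribosomal protein genes it was -0.30 over 583 genes. The median of the short genes against the mean of the inputs was -0.46, -0.54 and -0.18 in IgG replicates 1, 2 and 3. By GC content, the medians of the 5 classes lay between -0.02 and 0.08. Classes by the mean level of both groups differed more. The median was -0.90 over 840 genes under 1 CPM and 0.12 over 4631 genes from 1 to 10 CPM. It was 0.17 over 5264 genes from 10 to 100 CPM and -0.16 over 1888 genes from 100 to 1000 CPM. Above 1000 CPM the median was -0.58 over 87 genes, and 26.4% of the ratios were positive. Genes with lengths made up 99.6% of those tested.

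**Figure D5:**
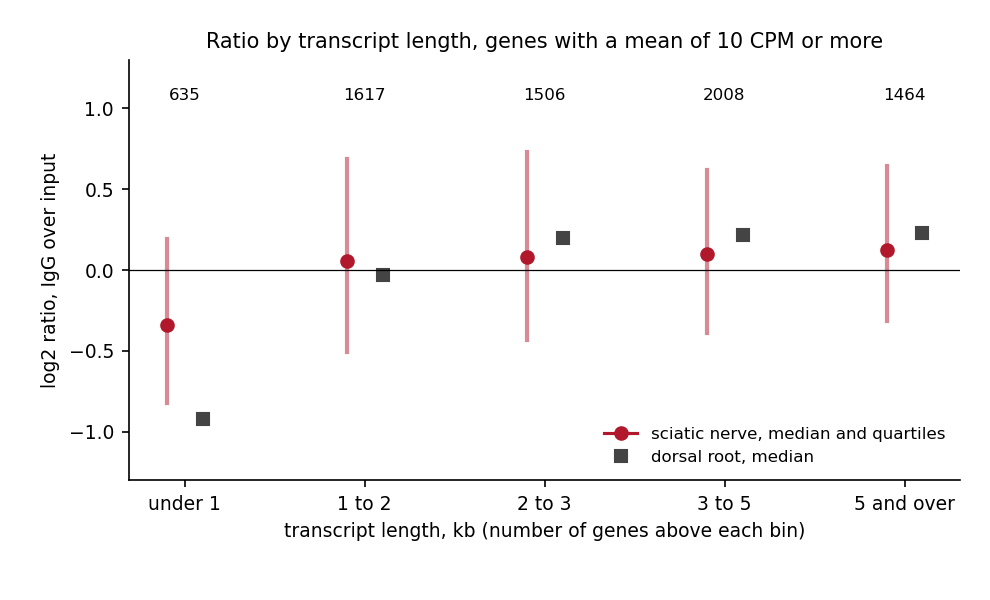
Median log2 ratio of IgG over input by transcript length in kb, for genes with a mean of at least 10 CPM, in sciatic nerve (red circles, with lines from the lower to the upper quartile) and in dorsal root (dark squares); the numbers of genes are written above. Genes under 1 kb have the lowest median in both tissues, -0.34 in sciatic nerve and -0.92 in dorsal root.

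The same comparison in dorsal root, with 3 IgG and 3 input libraries of its own, gives the test of where sciatic nerve differed. Of 12612 genes tested for a difference between the tissues, 9 (0.0714%) passed by edgeR's quasi-likelihood test with Benjamini-Hochberg adjustment, 6 with a larger and 3 with a smaller ratio in sciatic nerve. For IgG against input of dorsal root, taken from that same fit over 12 libraries, 0 genes passed. Leaving out any 1 of the 6 inputs left 0 differences. Leaving out dorsal root IgG replicate 3 gave 87 larger and 36 smaller, and leaving out sciatic nerve IgG replicate 3 gave 34 larger and 37 smaller. Without dorsal root IgG replicate 2 there were 3 larger, and without sciatic nerve IgG replicates 1 and 2 there were 12 and 18 smaller. Nnat, which rose in sciatic nerve, had 10.3, 17.7 and 7.15 CPM with IgG and 7.19, 9.05 and 6.70 CPM in input of dorsal root. Fasn had 129, 91.3 and 145 CPM with IgG there and 147, 136 and 196 CPM in input. The ratio of Fasn between IgG and input was thus larger in sciatic nerve by 2.37 on the log2 scale (SE 0.38, adjusted p = 0.039). Tusc5, a protein of fat cells that moves with the glucose carrier Glut4, had 204, 175 and 287 CPM with IgG and 49.2, 47.1 and 27.0 CPM in input of sciatic nerve. In dorsal root Tusc5 was at or below 2.52 CPM in all 6 libraries. Cox8b was low there as well, between 0.0546 and 3.92 CPM.

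Mmp9, a secreted protease that cuts matrix, and Cog1, a subunit of a complex that tethers vesicles at the Golgi, had a smaller ratio in sciatic nerve. Mmp9 had 0.0918, 0.422 and 0.0886 CPM with IgG and 4.20, 6.45 and 6.81 CPM in input of sciatic nerve, whereas dorsal root had 62.7, 103 and 39.7 CPM with IgG and 11, 14.2 and 18.4 CPM in input. Cog1 had 2 IgG counts in sciatic nerve against 266 in input, a ratio of 177 with an exact 95% interval from 48.5 to 1468. In dorsal root it had 53.5, 20.2 and 33.6 CPM with IgG and 3.35, 5.41 and 5.59 CPM in input. The IgG libraries were therefore on opposite sides of input in the 2 tissues for both genes. Myct1, an endothelial gene, was the reverse: 17.5, 98.7 and 30.7 CPM with IgG and 9.94, 6.20 and 3.65 CPM in input of sciatic nerve, against at most 0.164 CPM with IgG and 5.84, 6.73 and 2.27 CPM in input of dorsal root.

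Adipocyte genes summed to 495, 506 and 359 CPM with IgG and 425, 418 and 377 CPM in input of dorsal root. Their median ratio there was -0.16 over 15 genes, and the dorsal root ratios here are from the fit over 12 libraries. Endothelial genes had a median of -0.12 in dorsal root over 12 genes. Cytosolic ribosomal protein genes were negative in both tissues, with 6 of 85 positive and a median of -1.03 in dorsal root. Nuclear-retained noncoding RNAs were positive in 9 of 11 cases in dorsal root, with a median of 0.84. Myelinating Schwann cell genes had a median of 0.27 there, with 17 of 24 positive. The smallest adjusted p of a difference between the tissues was 0.0935 among adipocyte genes, 0.34 among Schwann cell genes and 0.394 among ribosomal protein genes, so no single member of these 3 lists passed; differences between tissues in the list medians were not tested.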

How the data were processed

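RNA of 18 libraries was sequenced after SMART-Seq v4 amplification, per the labels' protocols. The authors deposited 1 table for each tissue with raw read counts per Ensembl transcript. It also holds a normalized signal per library, log2 fold changes and p-values of the authors' own comparisons, per the file headers; none of these 3 was used. CASAVA 1.8.2, edgeR and the build mm10 (GRCm38) stand in the submitters' processing notes; for the aligner, counter, strand and annotation release, these were not given in the sources used here. Rows without a gene name (266 of 19096 transcripts, 0.146% to 0.195% of the counts of the 6 libraries) were left out. The table holds 0 mitochondrial transcripts, and its smallest sum over 9 libraries was 17.

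Counts were added up by gene name and compared in R 4.3.3 with edgeR 4.0.16 (glmQLFit, robust; TMM; filterByExpr) over the 6 libraries, with adjustment by Benjamini and Hochberg, two-sided, and a threshold of 0.05. The difference between tissues was fitted over 12 libraries on the 16878 named transcripts present in both tables. Dorsal root ratios are from that fit too, so they are not from a fit of dorsal root alone. DESeq2 1.42.0, limma-voom of limma 3.58.1, other scalings, filters and sets of libraries, a replicate block and leave-one-out fits were alternatives. The scripts were tested on simulated data. Lengths and positions are from GENCODE M21 (GRCm38) by transcript ID, which matched 99.2% of named transcripts; a gene's length is the mean over its transcripts weighted by counts. Genes were named by rule: 12 per direction (past the threshold with at least 10 CPM and no overlap, topped up by smallest p), 9 fixed genes, those with most counts or with none in a group, up to 3 per list, and up to 4 per direction for the difference. The members and lists were chosen with earlier results of these data known. P-values measure the spread between 3 repeats of pooled animals, handling included. No pair of replicates was alike within sampling noise. Some genes that the rule names are not reported here.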

Additional observations from a re-analysis of the deposited data

Results flagged for a closer look

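In 9 genes the log2 ratio of IgG over input differed between sciatic nerve and dorsal root by a test of the difference itself (edgeR's quasi-likelihood test, Benjamini-Hochberg). The ratio was larger in sciatic nerve for Cox8b by 5.79 (adjusted p = 0.028), for Myct1 by 8.16 (0.0291), for Nnat by 5.10 (0.0291), for Tusc5 by 4.39 (0.0309), for Fasn by 2.37 (0.039) and for Dnajc15, a mitochondrial co-chaperone, by 3.01 (0.039). It was smaller for Mmp9, with a difference of -6.90 (0.028), for Cog1, with -9.89 (0.028), and for the predicted 1700007L15Rik, with -6.87 (0.0291). Dnajc15 and 1700007L15Rik lie outside the naming rule and were chosen after their values were seen. Dnajc15 had 346, 300 and 213 CPM with IgG and 130, 135 and 103 CPM in input of sciatic nerve, and 26, 34.9 and 41.2 CPM with IgG and 118, 128 and 70.9 CPM in input of dorsal root. Its IgG libraries were thus above every input in sciatic nerve and below every input in dorsal root. 1700007L15Rik had at most 0.177 CPM with IgG against 11.2, 13.4 and 35.4 CPM in input of sciatic nerve, and in dorsal root 14.1, 32.5 and 21.4 CPM with IgG against 28.8, 35.6 and 46.2 CPM.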

How the results depend on the processing

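Against 7 genes higher and 1 lower, DESeq2 called 539 and 352, all 18 libraries 174 and 300, and a minimum of 5 CPM in 3 libraries 33 and 7. Limma-voom called 2 genes (1 higher), single transcripts 4 (3 higher) and transcripts that both tissues share 5 (4 higher). All 9 sciatic nerve libraries gave 5 calls (1 higher and 4 lower), library size alone 12 (2 lower) and RLE factors 9. Leave-one-out fits gave 0 to 1 higher and 0 lower, and leaving out a number from both groups gave 0. For the difference between tissues (6 larger, 3 smaller), DESeq2 called 170 and 217, and leave-one-out fits 0 to 87 and 0 to 37. The cause was not tested. Of the 8 calls, DESeq2, the other scalings and both filters kept 8, all 18 libraries 6, shared transcripts 5, single transcripts 4, limma-voom and all 9 libraries 2 each, and the replicate block 1.

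With a replicate block, 2 genes were higher and 0 lower, of which 1 was among the 8 calls, and a block within each tissue left 0 differences. Same-numbered IgG and input libraries had correlated deviations with r of -0.024, 0.042 and 0.014. IgG replicates 2 and 3 correlated best with the input of their own number and IgG replicate 1 with input replicate 3. No r reached 0.1 and the labels do not say what a number marks, so the numbers were not used as pairs.

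Of the named genes, 3 changed sign. The log2 ratio of Pmp22 lay between -1.1811 and 0.0609 in the leave-one-out fits and was positive without input replicate 3. The log2 ratio of Csmd1 lay between -0.0189 and 3.44 and was negative without replicate 3 of both groups. The log2 ratio of Col1a1, near 0, was 0.0152 with DESeq2 and with RLE factors, 0.0663 with limma-voom, 0.0122 with library size alone, 0.0004 on shared transcripts, 0.0002 with 9 libraries, 0.0524 with the replicate block, and between -0.2363 and 0.2818 in the leave-one-out fits. Genes under about 1 CPM rest on few counts.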
